A study of Mus musculus with 72 samples.

Results

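The genes described here are nuclear-encoded genes named for respiratory complex III (cytochrome bc1), complex IV (cytochrome c oxidase), and ATP synthase, in mice that lack the clock gene *Bmal1*. They were chosen by symbol, so subunits with other symbols, such as *Cyc1* of complex III, are not among them. They were taken as all protein-coding genes whose symbols start with *Uqcr*, *Cox4i*, *Cox5*, *Cox6*, *Cox7*, *Cox8*, or *Atp5* and whose mean normalized count was above 5 in at least 1 of the sets of libraries analyzed together. Of the 55401 genes in the tables, 52 have such a symbol, 8 of these are pseudogenes, and 43 of the 44 protein-coding genes passed: 8 of complex III, 18 of complex IV, and 17 of ATP synthase. The gene left out is a second locus named *Atp5o*, which is listed at 0 in every library.

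RNA-Seq of poly(A)-selected RNA was done on 72 libraries from male mice. Gastrocnemius, a limb muscle, came from WT mice, *Bmal1*-KO mice (KO), and KO mice given HA-tagged *Bmal1* under the muscle promoter CK6 in an AAV9 vector at postnatal day 5 (KO+AAV), with 6, 6, and 7 libraries in young mice (10 weeks) and 5 per group in adults aged 40 weeks. A separate experiment compared 3 gastrocnemius libraries of KO mice given AAV9-CK6-GFP (KO+GFP) with 3 of KO mice at 10 weeks. Heart, lung, white fat, and liver of KO and KO+AAV mice gave 4 libraries per group each at 40 weeks. Apart from the GFP experiment, tissue was collected at ZT1, that is 1 hour after lights on. The KO lacks *Bmal1* in every tissue, and the vector expresses it from a constitutive muscle promoter, so KO+AAV mice are still KO in cells where CK6 is not active. No WT libraries of the 4 other tissues and no GFP group at 40 weeks were analyzed here.

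Reads counted on genes ranged from 10076827 to 41733282 per library in the KO group at 10 weeks, with 11318203 to 38601790 in WT and 11616011 to 37712440 in KO+AAV. They were 9325122 to 13610317 at 40 weeks, 6754312 to 8515400 in the GFP experiment, and 36903079 to 50755829 in the other tissues. Sequencing of the 10-week muscle outside the GFP experiment was split over 2 sites, with 3 WT, 3 KO, and 4 KO+AAV libraries from ICBR and 3 per group from Novogene. All other gastrocnemius libraries came from Novogene and the other tissues from ICBR. The labels number the libraries of a group and do not say that each is 1 mouse, so *P* values measure the spread between these libraries.

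Complexes III and IV pass electrons from ubiquinol through cytochrome c to oxygen and pump protons across the inner mitochondrial membrane, and ATP synthase uses the return of these protons to make ATP. Some of their subunits (cytochrome b, the COX1 to COX3 proteins, and the a subunit of the proton channel of ATP synthase) are encoded by mitochondrial DNA, whereas the genes studied here encode proteins that are imported, among them the α and β subunits that form the catalytic head of ATP synthase. Several complex IV subunits have 2 forms, one (*Cox6a2*, *Cox7a1*, *Cox8b*) characteristic of heart and skeletal muscle and one (*Cox6a1*, *Cox7a2*, *Cox8a*) found in most tissues. BMAL1, paired with CLOCK, activates genes through E-box sequences of the letters CACGTG, and the coactivator PGC-1α, the nuclear respiratory factors, and the estrogen-related receptors are known activators of respiratory chain genes.

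The promoters shown are those of the members that hold an E-box, the sequence to which the deleted factor binds. RefSeq promoters on GRCm38.p6, from 250 bases before to 50 bases after a transcription start, were matched by symbol for 31 of the 43 members and gave 34 windows. The E-box stood in 3 of them (8.82%), against 7.15% of all 32851 promoters of the same length, and the sequence is its own reverse complement. Each window is written 5′ to 3′ on the strand of its gene, with the E-box in capitals.
*Atp5g3*, chr2:73911277-73911576, minus strand: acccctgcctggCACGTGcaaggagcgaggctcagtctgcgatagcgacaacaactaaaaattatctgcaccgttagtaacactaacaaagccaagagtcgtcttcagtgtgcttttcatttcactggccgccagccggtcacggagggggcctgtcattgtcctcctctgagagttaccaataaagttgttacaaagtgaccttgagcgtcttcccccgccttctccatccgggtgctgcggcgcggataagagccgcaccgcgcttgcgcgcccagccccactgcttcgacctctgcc
*Atp5l*, chr9:44920693-44920992, minus strand: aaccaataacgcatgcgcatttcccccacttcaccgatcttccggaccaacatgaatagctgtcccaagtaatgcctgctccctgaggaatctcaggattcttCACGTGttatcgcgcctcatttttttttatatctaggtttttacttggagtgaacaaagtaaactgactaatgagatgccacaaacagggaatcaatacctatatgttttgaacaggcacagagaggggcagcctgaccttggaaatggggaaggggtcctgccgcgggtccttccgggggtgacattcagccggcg
*Atp5g1*, chr11:96075582-96075881, minus strand: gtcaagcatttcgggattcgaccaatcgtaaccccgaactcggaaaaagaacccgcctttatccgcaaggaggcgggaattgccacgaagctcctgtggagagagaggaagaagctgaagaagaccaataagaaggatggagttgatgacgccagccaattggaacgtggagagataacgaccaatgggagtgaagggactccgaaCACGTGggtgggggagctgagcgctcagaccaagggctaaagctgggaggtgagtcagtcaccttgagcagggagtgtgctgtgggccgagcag
The E-box starts at position -238 from the transcription start in *Atp5g3*, -147 in *Atp5l*, and -44 in *Atp5g1*. *Atp5g1* and *Atp5g3* encode the c subunit of the membrane rotor of ATP synthase, and *Atp5l* encodes its g subunit. On either strand, the NRF1 motif GCGCANGC was in 11 of the 34 windows (32.4%, against 9.95% of all promoters) and the ETS or GABP motif CCGGAAG in 10 (29.4%, against 8.86%). The ERR motif TCAAGGTCA was in 1 window (2.94%, against 0.423%), that of *Atp5g3*, and the YY1 motif AAGATGGCG in 2 (5.88%, against 1.40%). A match describes letters and not a bound site.

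*Arntl*, the gene that encodes BMAL1, had a median of 527 normalized counts in the 6 WT libraries at 10 weeks, with a range of 402 to 634. In KO the range was 196 to 296 with a median of 236, and in KO+AAV it was 169 to 281 with a median of 222. At 10 weeks WT was above KO without overlap (2-sided exact permutation test within sites, *P* = 0.0050, adjusted *P* = 0.035 over the comparisons of this gene). KO+AAV was not distinguishable from KO (exact permutation test, *P* = 0.77). At 40 weeks the library labelled KO replicate 2 held 1039 normalized counts of *Arntl*, above every WT library (480 to 608), whereas the other 4 KO libraries held 308 to 395. In the same library the clock output genes were as low as in the other KO libraries: *Dbp* was at 32.2 normalized counts, against 73.1 to 92.8 in the other KO libraries and 560 to 877 in WT. The library thus goes against its label in *Arntl* and not in *Dbp*. For WT against KO and KO+AAV against KO at 40 weeks, the number of members that passed and their median are given below with and without it. Other results that use KO gastrocnemius at 40 weeks, the comparisons of age among them, include it.

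Other libraries stood apart as well. In heart, KO replicate 2 held hepatocyte markers at a summed level of 37279 TPM (reads per kilobase of exon, scaled to the same total in every library), against 7.496 to 20.3 TPM in the other 7 heart libraries. In white fat, KO replicate 2 held markers of epididymal epithelium at 42480 TPM, against at most 0.718 TPM in the others, and its adipocyte markers were at 10301 TPM, against 47626 to 59552 TPM. KO+AAV replicate 3 of white fat held brown adipocyte markers at 1063 TPM, against 6.11 to 21.2 TPM. In lung, cardiomyocyte markers differed between libraries, as described with the lung results. The defining markers of each labelled tissue were abundant: fast fiber genes summed to 69159 to 229271 TPM in gastrocnemius, hepatocyte markers to 60869 to 70982 TPM in liver, and lung epithelial markers to 247166 to 323517 TPM in lung.

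At 10 weeks the comparison of WT with KO asked what the loss of *Bmal1* did to these genes in young muscle. Of the 43 members, 40 had a mean above 5 normalized counts in the gastrocnemius libraries and were tested, and *Cox6b2*, *Cox7b2*, and *Cox8c* were not. Of these 40, 38 were lower in WT than in KO, and 10 passed the test (limma, adjusted *P* under 0.05), all of them lower in WT. Among all genes, 3.74% were lower in WT at this threshold. The count was 19 with only the compared groups in the model and 5 without the site term, where 13.6% and 6.67% of all genes passed in either direction. At an unadjusted *P* under 0.01, 16 members were lower in WT and none higher, against 5.15% of all genes lower. The median log2 fold change of the members, on the log2(normalized count + 1) scale and given throughout as the first group minus the second, was -0.30, against -0.01 for all genes tested. WT replicate 4 stood apart, with 22003 TPM summed over the members, against 15487 to 17264 TPM in the other WT libraries. Single libraries were not left out at 10 weeks.

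*Cox5a*, a subunit of complex IV next to its catalytic core, had the smallest *P*. Its lowest, median, and highest normalized counts were 4659, 5395, and 5882 in WT, 6304, 7347, and 7590 in KO, and 4815, 5921, and 7497 in KO+AAV. WT and KO did not overlap, and the KO+AAV libraries spanned most of the range of both (WT minus KO, log2 fold change -0.44, SE 0.10, adjusted *P* = 0.0049, or 0.737 times the KO level). *Atp5a1*, the α subunit of the ATP synthase head, ran from 28229 to 38162 (median 33179) in WT and from 39383 to 48968 (median 44128) in KO, again without overlap (-0.41, SE 0.11, adjusted *P* = 0.018). *Atp5g3*, whose promoter is shown above, had 4637 to 9529 normalized counts (median 6021) in WT and 6061 to 10571 (median 8939) in KO, so these groups overlapped (-0.47, SE 0.13, adjusted *P* = 0.018). The other members lower in WT were *Atp5h* (d subunit, -0.40) and *Cox6b1* (-0.40), then *Cox7b*, *Cox5b*, *Uqcrb*, *Cox6c*, and *Atp5g1*, with adjusted P from 0.020 to 0.049. The 10 included 1 of 8 complex III genes, 5 of 15 tested complex IV genes, and 4 of 17 ATP synthase genes, with medians of -0.30, -0.30, and -0.27.

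At 10 weeks the members differed between sites as well as between groups. The site term was past an adjusted *P* of 0.05 for 14 of the 40 members, 11 of them higher at ICBR, against 23.0% of all genes tested. Within ICBR libraries 39 of 40 members were lower in WT than in KO (median -0.34), and within Novogene libraries 38 of 40 were (median -0.23). No member passed the limma test in either site alone, with 3 libraries a group, where 2 and 1 members had an unadjusted *P* under 0.01, against 7.84% and 4.79% of all genes. With both sites in the model 28 members were lower in WT at an unadjusted *P* under 0.05, against 9.61% of all genes, and edgeR and DESeq2 on the recovered reads called 7 and 13, with 8.24% and 10.4% of all genes called in either direction.

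The KO+AAV libraries asked whether muscle *Bmal1* moved these genes in the KO. At 10 weeks 35 of 40 members were lower in KO+AAV than in KO, with a median of -0.14 against 0.01 for all genes, and none passed the test by limma, edgeR, or DESeq2. Of all genes, 0.204% passed by limma. Lower in KO+AAV at an unadjusted *P* under 0.05 were 5 members, against 3.71% of all genes. Between WT and KO+AAV, 37 members were lower in WT (median -0.15), and none passed by limma, edgeR, or DESeq2, against 5.15% of all genes by limma. The members at an unadjusted *P* under 0.05 were 6, against 18.1% of all genes. The comparisons of WT and of KO+AAV with KO share the KO libraries, so their values stand side by side and are not independent.

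**Figure D1:**
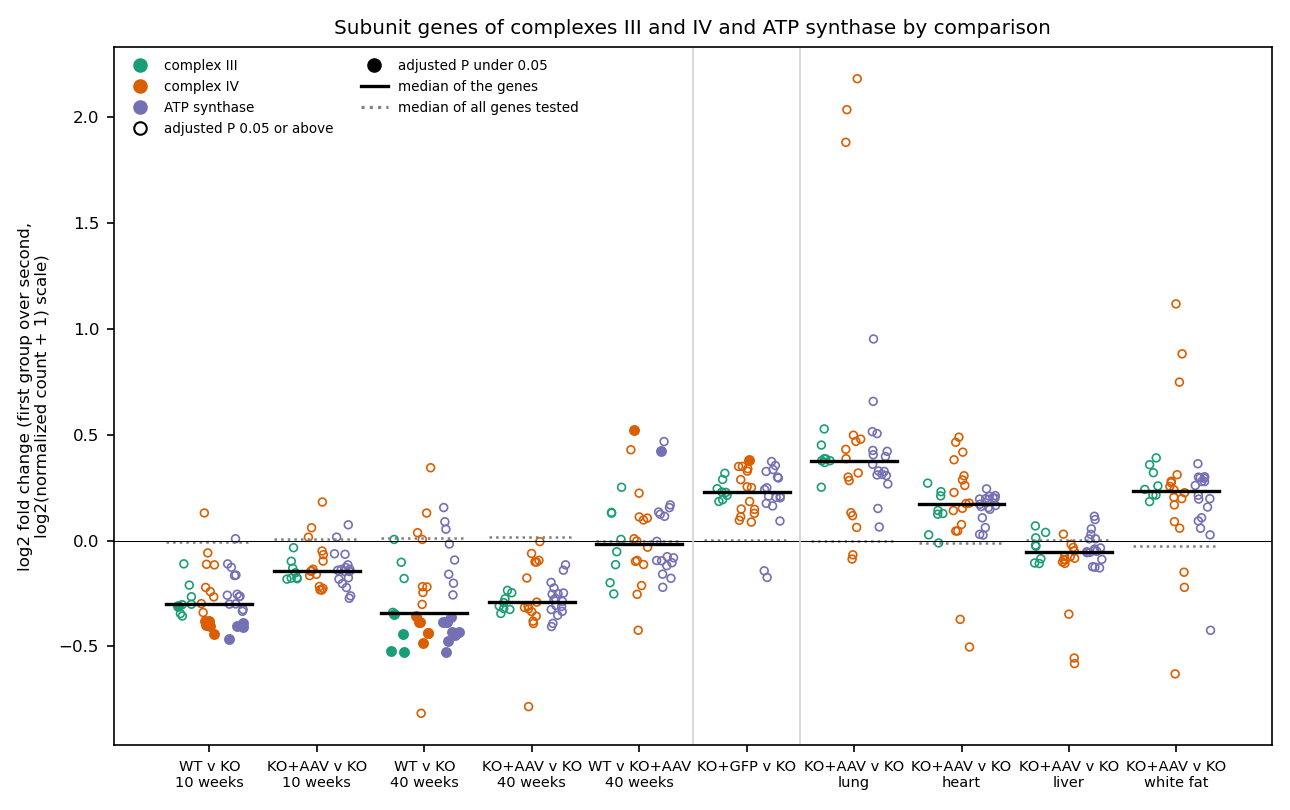
Log2 fold change (vertical axis, log2(normalized count + 1) scale, first group minus second) of each tested member in 10 comparisons. Points are genes in the color of their complex, filled at an adjusted P under 0.05. Thick lines are member medians and dotted lines the medians of all genes tested. At 40 weeks the median for WT against KO was -0.34, with 19 filled points below 0, whereas in lung Cox6a2 lay highest at 2.18.

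At 40 weeks the same comparison rested on 5 libraries per group, all from Novogene. Of 40 tested, 32 were lower in WT than in KO, and 19 passed the test (limma, adjusted *P* under 0.05), all lower in WT, against 11.5% of all genes. At an unadjusted *P* under 0.01 there were 17, against 10.9% of all genes, and 13 members had every WT library below every KO library, against 6.67% of all genes. The median log2 fold change was -0.34, against 0.01 for all genes. The 19 were 4 of 8 complex III genes, 6 of 15 complex IV genes, and 9 of 17 ATP synthase genes.

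Among complex III genes, *Uqcrfs1* encodes the Rieske iron-sulfur protein. It had 4833, 6469, 5895, 5653, and 7356 normalized counts in the 5 WT libraries, 7807, 8188, 9024, 7904, and 10220 in KO, and 8994, 6149, 6982, 5998, and 6610 in KO+AAV. All WT libraries lay below all KO libraries (-0.52, SE 0.13, adjusted *P* = 0.0033, or 0.697 times the KO level), and 4 of 5 KO+AAV libraries lay within the range of WT. *Uqcrc2*, a core protein of the complex, had 5582, 7127, 5814, 5855, and 7572 in WT and 7918, 9141, 9837, 8582, and 10441 in KO, also without overlap (-0.53, SE 0.13, adjusted *P* = 0.0044). *Uqcrb*, a small subunit next to the ubiquinone site, had 2185, 2587, 2490, 2330, and 2215 in WT, 2953, 3245, 3108, 3094, and 3617 in KO, and 2899, 2226, 2583, 2350, and 2753 in KO+AAV. For *Uqcrb* the KO libraries lay above all others, WT and KO+AAV alike (WT minus KO, -0.44, SE 0.11, adjusted *P* = 0.0029). Close pseudogene copies of *Uqcrb* (3 in the annotation) may share its reads, and 19.7% of the exon bases of *Uqcrc2* overlap *Pdzd9* on the other strand, which counting without strand cannot separate.

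Among complex IV genes, *Cox5a* had 4212, 5580, 4766, 4505, and 5419 normalized counts in WT, 5815, 6187, 6856, 6358, and 7912 in KO, and 6530, 4319, 5438, 4886, and 5404 in KO+AAV. WT lay wholly below KO (-0.44, SE 0.11, adjusted *P* = 0.0050), and KO+AAV had 1 library within the KO range. *Cox6a2*, the muscle form of subunit 6a, had 7556, 8751, 9313, 8694, and 9604 in WT, 10253, 11752, 11618, 10661, and 11826 in KO, and 11302, 9627, 10323, 9393, and 11757 in KO+AAV. Its WT libraries were below every KO library (-0.36, SE 0.10, adjusted *P* = 0.0088), whereas 3 KO+AAV libraries were within the KO range. At 10 weeks the same gene had overlapping groups, with medians of 6966 in WT and 7376 in KO. *Cox7b*, *Cox6b1*, *Cox5b*, and *Cox8a* were the other complex IV genes lower in WT, with log2 fold changes from -0.49 for *Cox8a* to -0.38 for *Cox5b*.

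Among ATP synthase genes, *Atp5g1*, whose promoter is shown above, had 3416, 5222, 3957, 4177, and 5035 normalized counts in WT, 6276, 5842, 6371, 5609, and 7003 in KO, and 5977, 3631, 4875, 4317, and 4909 in KO+AAV. Every KO library was above every WT library (-0.53, SE 0.14, adjusted *P* = 0.0050), and 1 KO+AAV library, replicate 1, was within the KO range. *Atp5b*, the catalytic β subunit, had 34237, 42780, 36976, 37548, and 45378 in WT, 49636, 54514, 54050, 47486, and 62588 in KO, and 53204, 35163, 43064, 38022, and 41751 in KO+AAV. It followed the same order of groups (WT minus KO, -0.45, adjusted *P* = 0.0085). *Atp5a1* and *Atp5c1* of the head, *Atp5f1* and *Atp5h* of the stalk, *Atp5d*, *Atp5l*, and *Atp5g3* also passed the test, with log2 fold changes from -0.47 for *Atp5l* to -0.36 for *Atp5d*.

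Some members did not pass or did not lie in this order. *Cox8b*, the muscle form of subunit 8, had 1953, 4222, 3685, 3634, and 2959 normalized counts in WT and 2270, 2183, 2754, 2523, and 2878 in KO at 40 weeks, so 4 of 5 WT libraries were above all KO libraries and 1 was below them (0.34, SE 0.15, adjusted *P* = 0.098). Its KO+AAV libraries had 2820, 2087, 1977, 2162, and 2133. *Cox4i2*, the minor form of subunit 4, had 7.41, 17.5, 7.08, 12.5, and 23.4 in WT and 15.1, 23.3, 26.1, 12.5, and 48.3 in KO, and its difference did not pass the test (-0.82, adjusted *P* = 0.080). *Atp5e*, the ε subunit, had 2724, 4234, 3605, 3734, and 3720 in WT, 3599, 2950, 3508, 3216, and 3547 in KO, and 3317, 2300, 2516, 2536, and 2734 in KO+AAV, and WT overlapped KO (0.09, adjusted *P* = 0.60).

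**Figure D2:**
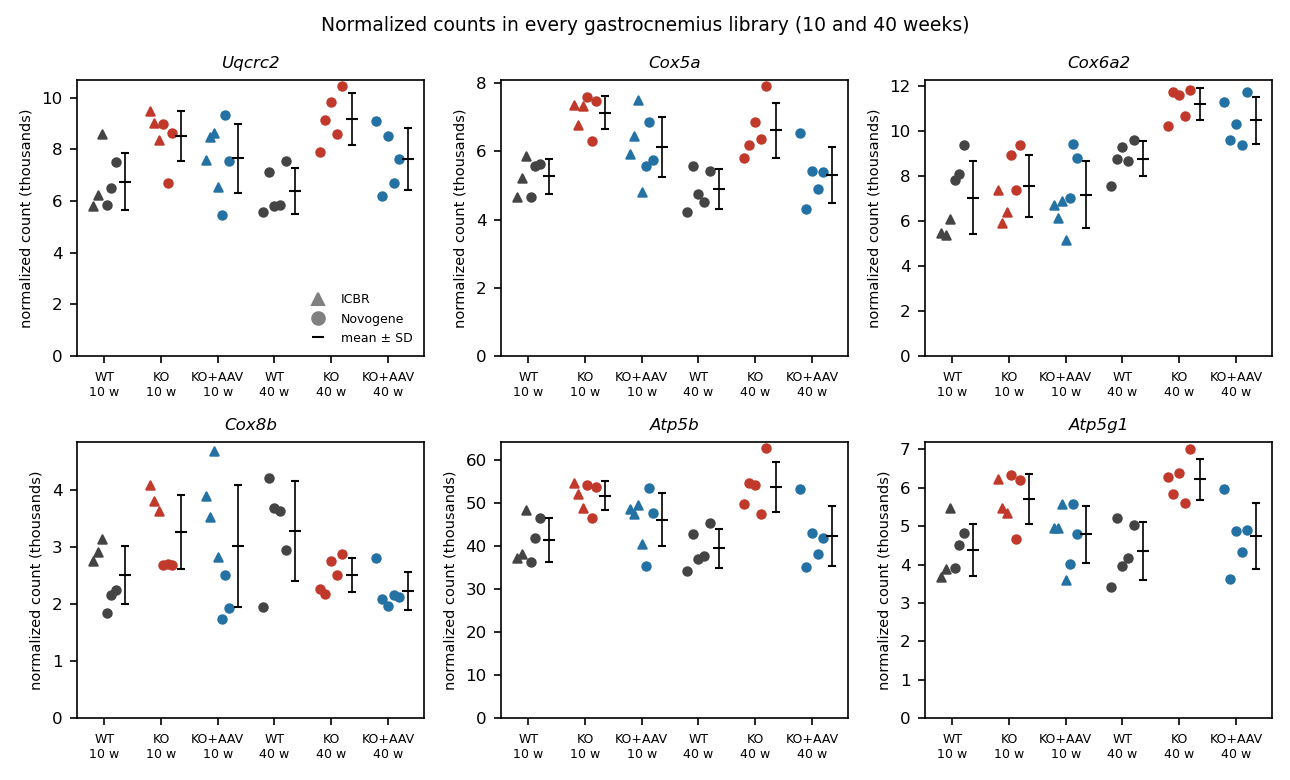
Normalized counts (vertical axes, in units of 1000) of 6 members in every gastrocnemius library of the main experiment, with triangles for ICBR, circles for Novogene, and bars for mean ± SD (n = 6, 6, 7, 5, 5, 5). At 40 weeks the WT and KO libraries do not overlap for Uqcrc2, Cox5a, Cox6a2, Atp5b, or Atp5g1, and they do for Cox8b.

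At 40 weeks all 40 tested members were lower in KO+AAV than in KO, with log2 fold changes from -0.785 for *Cox4i2* to -0.01 and a median of -0.29, against 0.02 for all genes. None passed the test by limma at an adjusted *P* under 0.05, against 0.259% of all genes, and none by edgeR or DESeq2. At an unadjusted *P* under 0.05 there were 27, against 4.32% of all genes lower in KO+AAV, and at 0.01 there were 9, against 1.23%. That count of 9 was 0 without KO+AAV replicate 2, 1 without KO+AAV replicate 4 or KO replicate 5, 2 without KO replicate 3, 5 without KO+AAV replicate 3, and 12 and 18 at most (without KO replicate 4 and without KO+AAV replicate 1), while 2.22% to 4.43% of all genes were past it in either direction in these fits. For 3 members every KO+AAV library was below every KO library, against 0.457% of all genes. The smallest *P* belonged to *Atp5e* (-0.33, adjusted *P* = 0.23) and *Uqcrb* (-0.33, adjusted *P* = 0.25), and *Atp5g1* had -0.41 (adjusted *P* = 0.26). Medians by complex were -0.30 for complex III, -0.31 for complex IV, and -0.28 for ATP synthase. KO+AAV replicate 1 was the highest library of its group for *Uqcrfs1*, *Uqcrc2*, *Uqcrb*, *Cox5a*, *Atp5b*, *Atp5g1*, and *Cox8b*.

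Between WT and KO+AAV at 40 weeks, 22 members were lower and 18 higher in WT, with a median of -0.02. With 1 library left out the median ran from -0.101 to 0.0729, so its sign was not fixed. *Atp5e* (0.42, SE 0.11, adjusted *P* = 0.0072) and *Cox8b* (0.52, SE 0.15, adjusted *P* = 0.020) passed the test, both higher in WT, against 6.05% of all genes. Without WT replicate 1, 5 members passed, with 9.77% of all genes in either direction, and without WT replicate 3 or 4 or KO+AAV replicate 3, 1 member did, with 9.63% to 9.85%. With all libraries 12.5% did.

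Without the library labelled KO replicate 2, 17 members passed for WT against KO at 40 weeks, with 19.7% of all genes in either direction against 23.5% with all libraries, and the median was -0.35, and for KO+AAV against KO none passed and the median was -0.30. Slow fiber genes also differed between these libraries. The list of 8 (*Myh7*, *Myl2*, *Myl3*, *Tnnt1*, *Tnni1*, *Tnnc1*, *Atp2a2*, and *Tpm3*), all of which had reads in every 40-week library, summed to 74.5, 1250, 164, 329, and 1351 TPM in WT, 637, 1990, 7607, 532, and 1513 TPM in KO, and 1577, 191, 1742, 251.9, and 320 TPM in KO+AAV. *Myl3*, a slow myosin light chain, was the most abundant of them in 11 of the 15 libraries, and none of the 8 passed the limma test for WT against KO, with 3 lower in WT at an unadjusted *P* under 0.05, against 17.2% of all genes, and a median of -2.28. With the log2 of that sum as a covariate, which was chosen after seeing the data, 12 members passed for WT against KO, with 20.1% of all genes, and the median was -0.20, and for KO+AAV against KO the median was -0.21. Without KO replicate 3, which had the highest slow fiber sum, 13 members passed, with 21.6% of all genes, and the median was -0.32. The list of 10 cardiomyocyte markers also differed, at 43.2 to 75.1 TPM in WT, 284 to 653 TPM in KO, and 314 to 1171 TPM in KO+AAV, with *Actc1* or Sln the most abundant and 1 to 3 of the 10 without reads in a library. Of its 6 tested genes 3 passed by limma for WT against KO, all lower in WT, against 11.5% of all genes: *Actc1* (-2.54, adjusted *P* = 0.00032), Sln (-6.12, adjusted *P* = 1.4e-07), and Pln (-2.72, adjusted *P* = 0.00082). In limb muscle this list describes the levels of these genes and not a number of cardiomyocytes. The part of this list in the result was not tested. In bulk muscle, fewer cells of a type and less RNA per cell cannot be told apart.

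Age was compared within each group, with site as a covariate since the 40-week libraries came from 1 site. In WT no member passed the test between 40 and 10 weeks by limma (0.148% of all genes did), with 3 at an unadjusted *P* under 0.05, against 7.46% of all genes, 1 called by edgeR (0.167% of all genes), and 2 by DESeq2 (0.39%). In KO, *Cox6a2* was higher at 40 weeks (0.35, SE 0.10, adjusted *P* = 0.029), with 4.05% of all genes higher. In KO+AAV, *Cox4i2* was lower at 40 weeks (-1.36, SE 0.35, adjusted *P* = 0.012), from a mean of 31.7 to 13.9 normalized counts, with 3.86% of all genes lower. Neither call held when only the Novogene libraries were compared. The difference between WT and KO was not distinguishable between the ages for any member by limma (0.37% of all genes passed) or edgeR, and for 1 by DESeq2 (1.27% of all genes). At an unadjusted *P* under 0.05 there were 2, against 13% of all genes, with a median interaction of -0.01 and 1 member, *Cox8b*, at an unadjusted *P* under 0.01 (0.73, SE 0.20, adjusted *P* = 0.10). For KO+AAV against KO no member passed by limma (0.00617% of all genes did), edgeR, or DESeq2, with 2 at an unadjusted *P* under 0.05, against 5.15% of all genes. This interaction had a median of -0.14 with 37 of 40 members more negative at 40 weeks, and a median of -0.06 with the slow fiber sum as a covariate.

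In the GFP experiment, which carried the same vector type without *Bmal1*, 38 of 40 members were higher in KO+GFP than in KO, with a median of 0.23 against 0.00 for all genes. *Cox6c*, a small structural subunit of complex IV, passed the test. It had 2187, 2183, and 2208 normalized counts in KO+GFP and 1835, 1713, and 1526 in KO (0.38, SE 0.086, adjusted *P* = 0.035, or 1.30 times the KO level), while 1.83% of all genes were higher. This call was lost without any 1 of the KO+GFP libraries or without KO replicate 3, and 4 members passed without KO replicate 2, with 2.31% of all genes in either direction. At an unadjusted *P* under 0.01 there were 9 members higher, against 4.37% of all genes, a count that was 2 to 15 with 1 library left out (2 without KO+GFP replicate 3, 15 without KO replicate 2), where 4.63% and 7.34% of all genes were past it in either direction. For 23 members every KO+GFP library was above every KO library, against 11% of all genes. *Uqcrfs1* was at 3671, 3881, and 3643 against 3149, 3071, and 2771 (0.32, adjusted *P* = 0.061). Complex III, complex IV, and ATP synthase genes had medians of 0.23, 0.25, and 0.21. The direction was thus opposite in sign to that of KO+AAV against KO, which was measured in other libraries and another table, and the 2 differences were not tested against each other.

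In the same 6 libraries slow fiber genes summed to 1514, 1204, and 1280 TPM in KO+GFP and 743, 139, and 176 TPM in KO, and 6 of the 8 genes were higher in KO+GFP past the test. Their most abundant gene was *Myl3* in all 6 libraries, and all 8 had reads. Among the 14477 genes tested, 265 (1.83%) were higher in KO+GFP and 183 were lower at this threshold. Macrophage markers were also higher (7 of 9 tested), at 102, 175, and 134 TPM against 41.8, 60.4, and 36.3 TPM, with *Lyz2* the most abundant and at most 1 of the 10 without reads in a library. Schwann cell markers were lower (3 of 5), at 40.2, 59.6, and 48.2 TPM against 139, 107, and 120 TPM. Myh2, the type 2A myosin, was higher at 932, 1248, and 1052 TPM against 445, 352, and 249 TPM, and fast fiber genes summed to 129903 to 145718 TPM against 154231 to 166132 TPM. With the slow fiber sum as a covariate, added after seeing the data, the median of the members was 0.233, against 0.228 without it, and no member passed by limma, where 0.166% of all genes did. Every KO+GFP library had a higher slow fiber sum than every KO library, so this fit cannot separate the group from the slow fiber level. Whether these cells had a part in the result was not tested.

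Levels per length were compared with TPM, since reads alone scale with gene length. In gastrocnemius the highest member was *Atp5a1* at 10 weeks (1942 ± 310 TPM, SD, n = 19) and *Cox6a2* at 40 weeks (2244 ± 304 TPM, SD, n = 15), with *Atp5a1* next at 1835 ± 319 TPM, a difference within the spread of the libraries. *Atp5a1* was also highest in heart (3344 ± 563 TPM, n = 8), followed by *Cox6a2* at 3035 ± 729 TPM, whose ranges overlapped, and in liver (941 ± 46.0 TPM). In white fat *Cox8a* was highest (1620 ± 312 TPM) and in lung *Cox4i1* (510 ± 82.3 TPM), with *Atp5a1* next in lung at 507 ± 102 TPM and indistinguishable from it. The lowest were *Cox8c* and *Cox7b2*. *Cox8c* had no reads in gastrocnemius or liver, *Cox7b2* had none in liver or in gastrocnemius at 40 weeks, and in heart, lung, and white fat both had means under 1 TPM.

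The median member was at 606 TPM in heart, 366 TPM in gastrocnemius at 10 weeks, 323 TPM at 40 weeks, 257 TPM in white fat, 200 TPM in liver, and 137 TPM in lung. Ratios between tissues were taken gene by gene from the medians of the KO libraries alone, which in heart included KO replicate 2 with its hepatocyte markers. Set against liver, heart held a median of 3.10 times the level and gastrocnemius at 40 weeks 1.64 times, and 40 and 32 of 43 members were above liver. Lung held a median of 0.366 times the level of gastrocnemius at 40 weeks, and 7 members were higher in lung. These ratios were not tested, and gastrocnemius at 40 weeks was sequenced at another site than the other tissues, so they are descriptions. Summed over the members, heart libraries held 35548 to 38321 TPM apart from KO replicate 2, which held 20623 TPM.

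**Figure D3:**
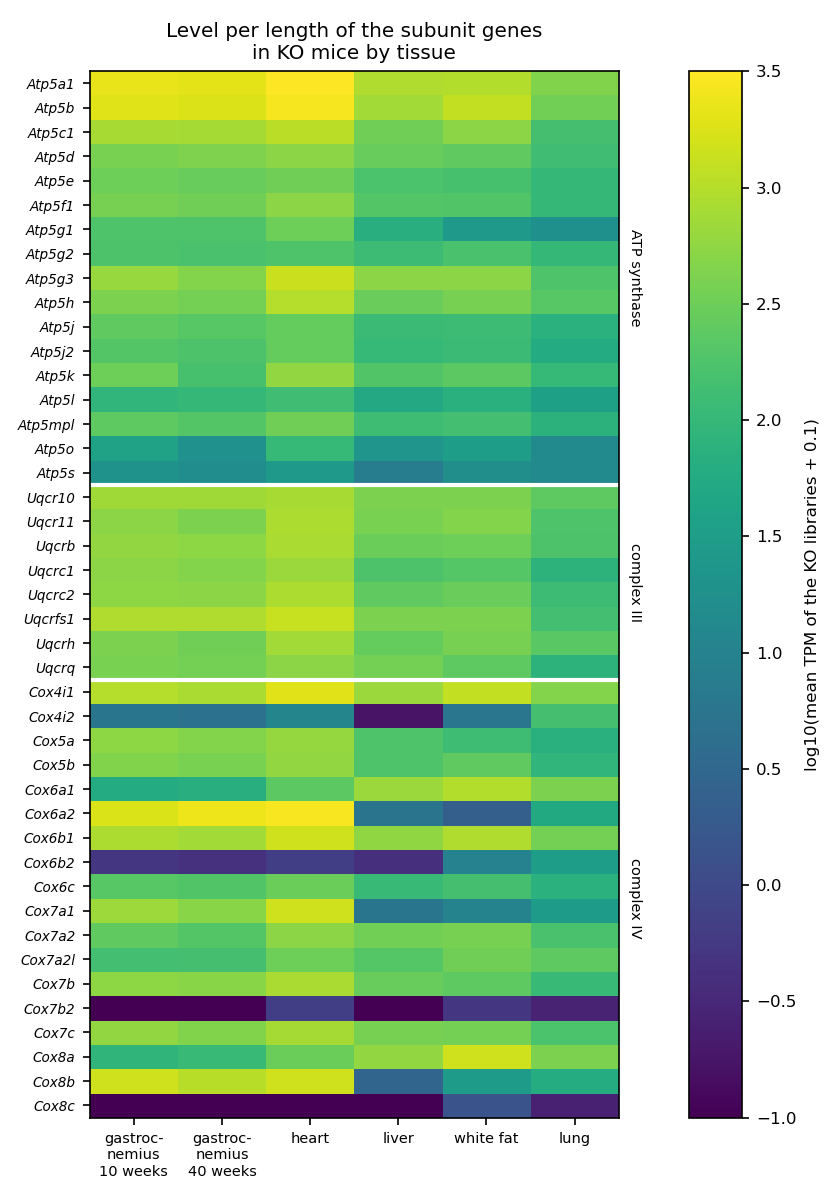
Mean level per length of each member in the KO libraries by tissue, as log10(TPM + 0.1) in color. Members are in rows and tissues in columns. Cox6a2, Cox7a1, and Cox8b are high in gastrocnemius and heart and low in liver and white fat, and Cox6a1 and Cox8a have the reverse order.

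The tissue forms of complex IV split along the labels of the tissues. *Cox6a2* was at 1678 TPM in gastrocnemius at 10 weeks, 3035 TPM in heart, 144 TPM in lung, 5.62 TPM in liver, and 2.03 TPM in white fat. *Cox6a1* was at 57.3, 188, 395, 640, and 1035 TPM in the same tissues. The heart means include KO replicate 2, the library with hepatocyte markers, and the lung means pool KO and KO+AAV libraries, which differed in *Cox6a2* as described below. As a share of the reads per kilobase of the *Cox6a* pair, which does not depend on a library's scaling, *Cox6a2* held 96.3% to 97.3% in the group means of gastrocnemius and 95.7% ± 0.322 in heart of KO+AAV mice (SD, n = 4). In heart of KO mice, with that replicate included, *Cox6a2* held 90.1% ± 10.6. In liver it held 0.800% ± 0.312 in KO and in white fat 0.237% ± 0.0278 in KO (n = 4 each). The muscle form thus made up nearly all of the pair in muscle and almost none of it in liver and fat.

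*Cox7a1* held 66.6% to 72.8% of the *Cox7a* pair in gastrocnemius group means, 76.9% ± 1.32 in heart of KO+AAV mice (72.1% ± 7.57 in KO), and 1.56% ± 0.425 in liver of KO mice, so the widely expressed *Cox7a2* kept a larger share in muscle than *Cox6a1* did. *Cox8b* held 89.4% to 96.1% of the *Cox8* pair in gastrocnemius, 88.7% ± 1.07 in heart of KO+AAV mice (79.7% ± 14.5 in KO), and 0.490% ± 0.392 in liver of KO mice. *Cox4i2* differed from these: it held 24.2% ± 0.476 of the *Cox4i* pair in lung of KO mice (n = 4) and under 1% in the group means of the other tissues. *Cox6b2*, a form described in testis, held 8.26% ± 0.629 of its pair in lung of KO mice, against 1.18% ± 0.711 in white fat. Among the c subunit genes, *Atp5g1* held 22.8% ± 1.06 in KO gastrocnemius at 40 weeks, 16.8% ± 1.998 in KO heart, and 9.80% ± 0.241 in KO liver.

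**Figure D4:**
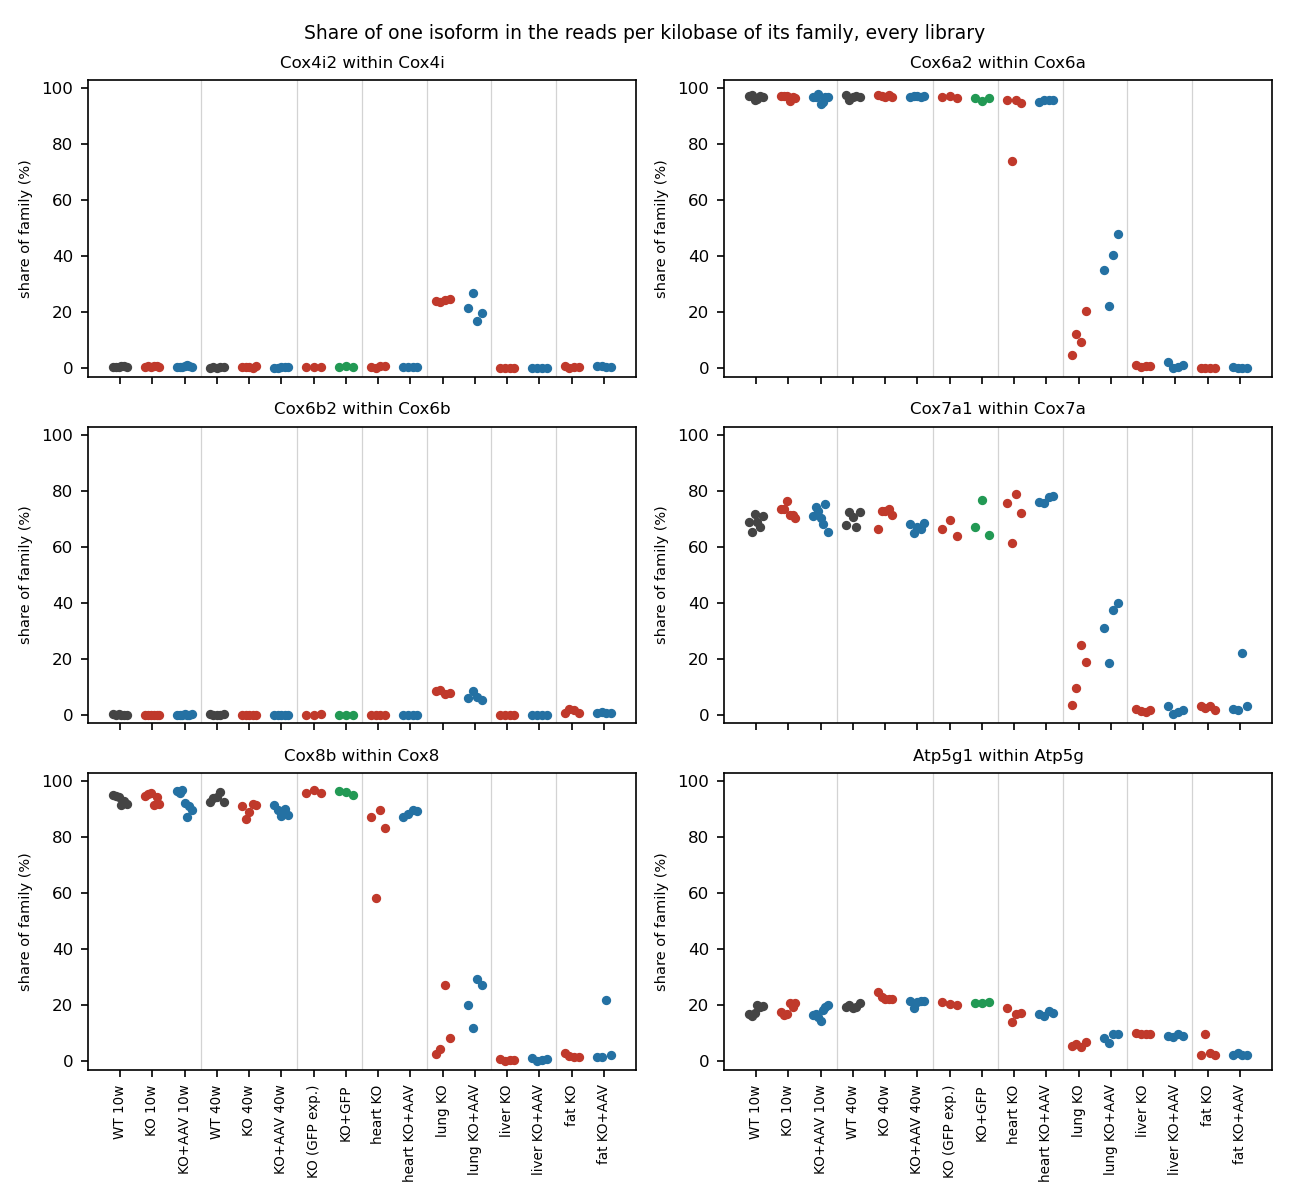
Share (%, vertical axis) of 1 isoform in the reads per kilobase of its family, in every library of the 16 groups. Each point is a library, gray for WT, red for KO, blue for KO+AAV, and green for KO+GFP. Cox6a2 lies near 96% in gastrocnemius and heart, apart from heart KO replicate 2 at 74.1%, and near 0 in liver and white fat.

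Isoform shares were compared between groups in 98 exact permutation tests, 2-sided, and none had an adjusted *P* under 0.05. At 40 weeks *Atp5g1* held 19.7% ± 0.777 of its family in WT, 21.0% ± 1.19 in KO+AAV, and 22.8% ± 1.06 in KO (n = 5 each). All WT and all KO+AAV libraries were below all KO libraries (exact permutation test, *P* = 0.0079 each, the smallest it can give, adjusted *P* = 0.19). *Cox8b* held 94.1% ± 1.45 in WT, above every KO (90.04% ± 2.27) and KO+AAV library (89.4% ± 1.61), with the same exact *P* values. At 10 weeks *Cox7a1* held 68.8% ± 2.34 in WT and 72.8% ± 2.17 in KO (exact permutation test within sites, *P* = 0.010, adjusted *P* = 0.20). The share of *Cox6a2* in gastrocnemius differed by at most 1 percentage point between the groups of either age.

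In lung, 39 of 41 tested members were higher in KO+AAV than in KO, with a median of 0.38 against 0.00 for all genes. By limma no member passed at an adjusted *P* under 0.05 (0.0237% of all genes did), edgeR called none, and DESeq2 called 7, with 3.17% of all genes called. At an unadjusted *P* under 0.05, 30 were higher, against 7.11% of all genes, and at 0.01 there were 7, against 3.06%. For 3 members every KO+AAV library was above every KO library, against 3.91% of all genes higher. The largest log2 fold changes were those of the muscle forms, *Cox6a2* at 2.18 (SE 0.48, adjusted *P* = 0.13, or 4.54 times the KO level), *Cox7a1* at 2.04, and *Cox8b* at 1.88. *Cox6a2* had 247, 647, 588, and 1040 normalized counts in KO and 2383, 1163, 3603, and 4170 in KO+AAV, without overlap. *Atp5g1* had 1227, 1620, 1456, and 1779 in KO and 2691, 1787, 3802, and 3952 in KO+AAV, again without overlap (0.95, SE 0.24, adjusted *P* = 0.18). *Cox7a1* had 53.6, 148, 599, and 334 in KO and 789, 356, 1260, and 1298 in KO+AAV, so KO replicate 3 lay above KO+AAV replicate 2. *Cox6a1*, the widely expressed form, had 4972, 4738, 5967, and 4191 in KO and 4575, 4190, 5466, and 4664 in KO+AAV, and these groups overlapped. *Cox4i2*, the form that lung held in excess of the other tissues, had 1864, 1911, 2358, and 1845 in KO and 2006, 2401, 1803, and 2119 in KO+AAV, which overlapped too.

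The cardiomyocyte markers of the lung libraries followed the same order of groups. The list of 10 genes summed to 99.1, 724, 825, and 1224 TPM in KO and 4520, 1611, 5300, and 5850 TPM in KO+AAV, and all 10 were higher in KO+AAV, 9 of them at an unadjusted *P* under 0.01 and none past the adjusted threshold by limma (median 2.97). *Myl7*, an atrial myosin light chain, was the most abundant in 6 of the 8 libraries and *Actc1* in the other 2, and 1 gene had no reads in KO replicate 1. The share of *Cox6a2* in its pair was 11.7% ± 6.55 in KO and 36.4% ± 10.8 in KO+AAV lung (n = 4 each, exact permutation test, *P* = 0.029, the smallest possible with 4 against 4, adjusted *P* = 0.29). Adipocyte markers summed to 15.4, 28.1, 841, and 65.6 TPM in KO and 658, 88.1, 1163, and 342 TPM in KO+AAV, with brown adipocyte markers at 356 TPM in KO replicate 3 and at most 66.6 TPM elsewhere. Slow fiber genes, led by *Atp2a2* or *Tpm3*, summed to 343 to 611 TPM in KO and 618 to 1634 TPM in KO+AAV. Schwann cell markers, led by Pmp22, were at 586 to 742 TPM in KO and 454 to 557 TPM in KO+AAV without overlap, and macrophage markers, led by *Lyz2*, at 6346 to 8509 and 4424 to 6407 TPM, which overlapped. None of the genes of these 3 lists passed by limma, and their part in the result was not tested. With the cardiomyocyte sum as a covariate, chosen after seeing the data, the median of the members was 0.08 and none passed by limma, as without it. Every KO+AAV library had a higher cardiomyocyte sum than every KO library, so this fit cannot separate the group from the cardiomyocyte level. Without KO+AAV replicate 2, which had the lowest cardiomyocyte sum of its group, 6 members passed and 33 had an unadjusted *P* under 0.01, where 1.22% and 5.22% of all genes did. That second count was 18 without KO replicate 3, with 4.36% of all genes, 6 without KO+AAV replicate 1, with 4.19%, and 2 or 3, with 1.97% to 3.42%, without KO replicate 1, 2, or 4 or KO+AAV replicate 3 or 4.

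**Figure D5:**
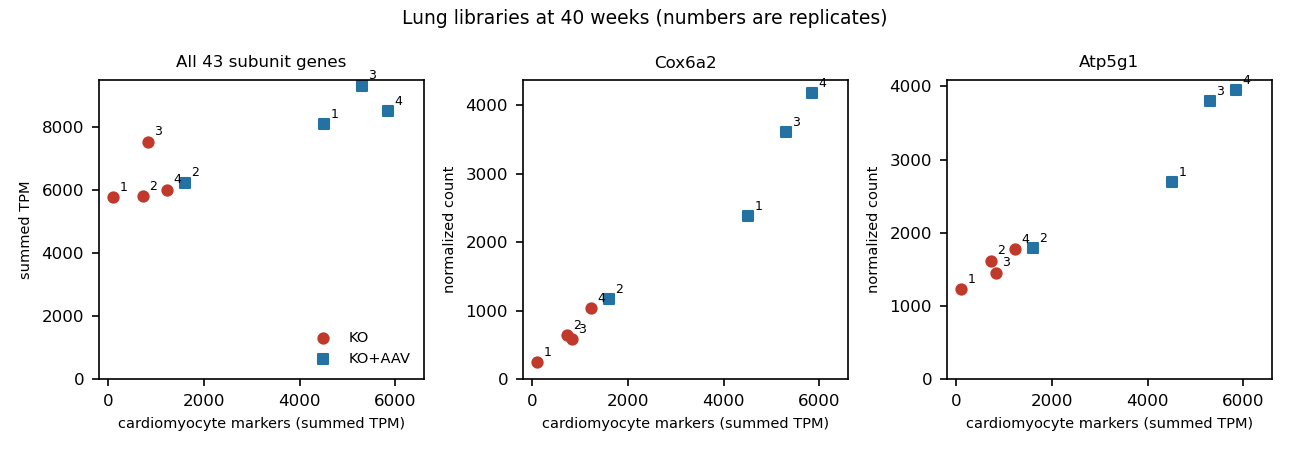
Values of the 8 lung libraries (vertical axes: summed TPM of the members, or normalized counts) against the summed TPM of 10 cardiomyocyte markers (horizontal axes), with KO and KO+AAV in separate colors and replicate numbers beside the points. KO libraries lie at 99.1 to 1224 TPM of the markers and KO+AAV libraries at 1611 to 5850 TPM.

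In heart, 39 of 42 tested members were higher in KO+AAV than in KO (median 0.17), and none passed by limma, edgeR, or DESeq2 or had an unadjusted *P* under 0.05. By limma 0% of 18089 genes passed, and 1.28% had an unadjusted *P* under 0.05. The lowest were *Cox6a1* (-0.50, adjusted *P* = 0.86) and *Cox8a* (-0.37), the forms that liver expresses. KO replicate 2 was the library farthest from the others. *Cox6a1* had 2070, 6043, 1965, and 1700 normalized counts in KO and 1703, 1863, 1817, and 1797 in KO+AAV, and *Cox6a2* had 44533, 16776, 42440, and 30286 against 32994, 40380, 40496, and 41581. This is the heart library with hepatocyte markers, and its share of *Cox6a2* was 74.1%, against 94.8% to 96.0% in the other heart libraries. Without it the median of the members was 0.01, and without KO replicate 1, 3, or 4 it was 0.300, 0.270, or 0.106. KO replicate 4 also stood apart in its cardiomyocyte markers. They summed to 70684.5 TPM, led by *Nppa*, against 13303 to 39903 TPM in the other heart libraries.

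In liver, 29 of 39 tested members were lower in KO+AAV than in KO, with a median of -0.0532, and none passed by limma, edgeR, or DESeq2 or had an unadjusted *P* under 0.05. Leaving out KO+AAV replicate 1, 3, or 4 gave a median of -0.0230, -0.0269, or -0.108. By limma 0% of 16656 genes passed, and 3.32% had an unadjusted *P* under 0.05. *Cox6a1* had 7784, 7445, 7482, and 6729 normalized counts in KO and 6540, 6934, 6657, and 7496 in KO+AAV, which overlapped. The muscle form *Cox6a2* was at 85.5, 28.7, 53.7, and 62.2 in KO and 142, 5.11, 21.7, and 88.3 in KO+AAV, with the widest spread in KO+AAV.

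In white fat, 38 of 42 tested members were higher in KO+AAV (median 0.23), none had an unadjusted *P* under 0.05, and none passed by limma, edgeR, or DESeq2. By limma 0% of 21092 genes passed, and 1.04% had an unadjusted *P* under 0.05. *Cox8b* had 270, 99.4, 110, and 138 normalized counts in KO and 141, 96.0, 3094, and 217 in KO+AAV, so its highest value was that of KO+AAV replicate 3, the library with brown adipocyte markers. *Cox7a1* was likewise at 1146 in that library and at 41.7 to 111 in the other 7. *Atp5g1* had 1477, 3552, 1439, and 1370 in KO, where replicate 2 with epididymal markers was highest, and 1303, 1266, 1422, and 1361 in KO+AAV. Without these 2 libraries, an alternative chosen after seeing the data, the median of the members was -0.06 and none passed by limma. With 1 library left out it was 0.0735 without KO replicate 2, 0.114 without KO+AAV replicate 3, and 0.380 without KO+AAV replicate 2, its highest.

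Other genes of oxidative phosphorylation were described from lists of their own. Of 36 structural subunits of complex I, 7 were lower in WT than in KO at 10 weeks, led by *Ndufb7* (-0.40, adjusted *P* = 0.0060) and *Ndufv3* (-0.34, adjusted *P* = 0.018), with a list median of -0.24, where 3.74% of all genes were lower. At 40 weeks 14 were lower, led by *Ndufa10* (-0.59, adjusted *P* = 0.0002) and *Ndufb8* (-0.56, adjusted *P* = 0.0005), and *Ndufb4* was higher (0.35, adjusted *P* = 0.024), with a median of -0.22, where 11.5% of all genes were lower. All 4 complex II genes were lower in WT at 40 weeks, led by *Sdhd* (-0.45, adjusted *P* = 0.0096) and *Sdhc* (-0.40, adjusted *P* = 0.013), and none passed at 10 weeks by limma, where all 4 had an unadjusted *P* under 0.05. Cytochrome c, the electron carrier between complexes III and IV, was lower in WT at 40 weeks (*Cycs*, -0.51, adjusted *P* = 0.0044), as was cytochrome c1 of complex III (*Cyc1*, -0.40, adjusted *P* = 0.028). None of the 5 tested mitochondrially encoded subunits passed by limma at either age, none had an unadjusted *P* under 0.05, and their medians were 0.25 at 10 weeks and 0.04 at 40 weeks. In KO+AAV against KO no gene of these lists passed by limma at either age. At 40 weeks 23 complex I genes, 2 complex II genes, and 3 of the 5 partners such as *Cycs* were lower at an unadjusted *P* under 0.05, and at 10 weeks 5, 0, and 1, against the 4.32% and 3.71% of all genes given above.

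Assembly factors, which build the complexes and are not part of them, were mixed. At 40 weeks 5 of 34 were lower and 2 higher in WT, against 11.5% and 12% of all genes. The lower ones were led by *Coa4* (-1.46) and *Cox19* (-0.62, adjusted *P* = 0.0003), a pair of small twin-cysteine proteins, and the higher ones were *Cox11* (0.55, adjusted *P* = 0.0059) and *Coa7* (0.75, adjusted *P* = 0.011). At 10 weeks 3 were lower, among them *Coa5* (-0.42, adjusted *P* = 0.0071) and the heme A synthase *Cox15* (-0.28, adjusted *P* = 0.023). Of 17 regulators of mitochondrial biogenesis, *Ppargc1a*, which encodes PGC-1α, was higher in WT than in KO at 40 weeks, with means of 610 and 400 normalized counts (0.67, adjusted *P* = 0.0094). *Gabpb1*, a subunit of the ETS-family factor GABP, was lower (-0.57, adjusted *P* = 0.0031), as was the mitochondrial transcription factor *Tfam* (-0.30, adjusted *P* = 0.012). These 40-week calls stand against the same 11.5% of all genes lower and 12% higher in WT. At 10 weeks no regulator passed by limma, and 2 of the 17 had an unadjusted *P* under 0.05. At that threshold 9.61% of all genes were lower in WT, and others were higher. The count of 2 is therefore not taken as an excess. In KO+GFP against KO, *Ppara* (1.44, adjusted *P* = 0.0084), *Esrrg* (0.95, adjusted *P* = 0.024), *Sdhb* (0.54, adjusted *P* = 0.0088), and *Ndufb3* (0.53, adjusted *P* = 0.0086) were higher.

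The clock genes were measured in the same libraries. Of 13 clock genes, 4 were higher in KO+AAV than in KO at 40 weeks and 5 at 10 weeks, while no member passed. Among the 16199 genes tested, 36 and 22 were higher. *Npas2* ran the other way at 40 weeks, with means of 140 normalized counts in KO+AAV (116 to 168) and 238 in KO (181 to 307). At 10 weeks its means were 146 in KO+AAV and 160 in KO, and the ranges overlapped (83.6 to 227 and 131 to 183). At 40 weeks the nuclear receptor *Nr1d2* had a mean of 699 normalized counts in KO+AAV and 210 in KO (1.74), and the repressor *Per3* had 128 and 15.4 (3.20).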

How the data were processed

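RNA-Seq was done on 72 libraries. Reads had been aligned to GRCm38 (HISAT2) and counted per gene (HTSeq). What the authors deposited is a normalized signal, each count over the DESeq2 size factor of its library. Multiplying by that factor recovered whole reads for 100% of the values (tolerance 0.01). The annotation release and the strand setting are not given in the sources used here. The tables hold no columns of comparisons.

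Log2(normalized count + 1) was tested with limma 3.58.1 (intensity trend, R 4.3.3) over genes with a mean above 5 and adjusted by Benjamini-Hochberg over all genes tested. One model held the 34 gastrocnemius libraries (6 groups, site as a covariate), and the GFP experiment and each tissue had their own. A gene passed the test at an adjusted *P* under 0.05. Shares and *Arntl* were tested by exact permutations of libraries. TPM used GENCODE vM21 exon lengths. The code was tested on simulated data, and edgeR 4.0.16 and DESeq2 1.42.0 on the recovered reads were alternatives. Counting error is largest for low counts. Near-identical pseudogenes (12 members) and genes on the other strand (12 members) may share reads with a member.

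The members and gene lists were chosen with earlier results of these data known. The rule for genes named with values took the 5 members with the smallest P in each direction that passed per comparison, all isoform pairs, the highest and lowest member per tissue, the first 2 genes in each direction per mitochondrial list, the most abundant markers, and *Arntl*. Other members and genes were named after their values were seen. Figures were drawn with matplotlib 3.10.9.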

Additional observations from a re-analysis of the deposited data

Results flagged for a closer look

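In groups of 4 to 7 libraries, 168 values were examined for a library far from the others, by its gap to the nearest library as a share of the group's range, and 24 were marked, whereas chance marks about 1 in 20. The gap share is given after each value.

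Heart KO replicate 2, the library with hepatocyte markers, had 20623 TPM summed over the members, against 36705 to 38321 TPM in the other KO hearts (0.909). Its complex IV genes summed to 8118 TPM (0.871), its ATP synthase genes to 8123 TPM (0.947), and its *Cox6a2* share was 74.1% (0.960). Heart KO+AAV replicate 1 had 14739 TPM of complex IV genes, against 15563 to 15686 TPM (0.870).

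Lung KO replicate 3, the KO lung library with brown adipocyte markers, had 7548 TPM over the members, against 5783 to 6018 TPM (0.867), with complex III at 1494 TPM (0.875), complex IV at 3588 TPM (0.947), and *Cox4i2* at 177 TPM, against 135 to 137 TPM (0.970). In white fat, KO+AAV replicate 3, with brown adipocyte markers, had a *Cox7a1* share of 22.2%, against 1.58% to 3.01% (0.931), and a *Cox8b* share of 21.9%, against 1.42% to 2.15% (0.964). KO replicate 2, with epididymal markers, had an *Atp5g1* share of 9.81%, against 2.40% to 2.93% (0.928). In liver, KO+AAV replicate 4 had 4467 TPM of complex IV genes, against 3832 to 3934 TPM (0.839).

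In gastrocnemius at 10 weeks, WT replicate 4 had 22003 TPM over the members, against 15487 to 17264 TPM (0.727), with complex III at 4740 TPM (0.740), complex IV at 8705 TPM (0.719), and ATP synthase at 8558 TPM (0.714). KO replicate 5 had a *Cox6a2* share of 95.7%, against 96.7% to 97.4% (0.629), and cardiomyocyte markers at 3565 TPM, against 676 to 1234 TPM (0.807). At 40 weeks, *Arntl* had 1039 normalized counts in KO replicate 2 (0.880) and 480 in WT replicate 5, against 571 to 608 (0.7101). The *Atp5g1* share was 18.9% in KO+AAV replicate 2, against 21.3% to 21.7% (0.844), and 24.6% in KO replicate 1, against 22.1% to 22.8% (0.712). Slow fiber genes summed to 7607 TPM in KO replicate 3, against 532 to 1990 TPM (0.794).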

How the results depend on the processing

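No member that passed the test in a comparison changed direction there under any alternative. Several medians over the members did. That of WT against KO+AAV at 40 weeks (-0.0177) was 0.0260 with the slow fiber sum as a covariate and above 0 without WT replicate 1 (0.0729) and without KO+AAV replicate 1, 3, or 5. White fat (0.233) was at -0.0553 without KO replicate 2 and KO+AAV replicate 3. Age in KO (0.0657) was at -0.0081 with the covariate, and age in KO+AAV (-0.0889) was above 0 with the replicate block. The difference of WT and KO between ages (-0.0078) was 0.0025 without the filter, 0.0050 with a mean above 50, and 0.0446 with the covariate. WT against KO at 40 weeks (19 members) gave 13 to 20 with 1 library left out, 12 with the slow fiber sum as a covariate (median -0.20), and 14 to 19 otherwise. WT against KO at 10 weeks (10) gave 19 with only the compared groups in the model, 5 without the site term, and 0 in ICBR or Novogene libraries alone. With the slow fiber sum as a covariate it gave 7 (median -0.227). WT against KO+AAV at 40 weeks (2) gave 1 with only the compared groups, 5 with the covariate, and 1 to 5 with 1 library left out. Between ages, WT (0) gave 1 with edgeR and with the covariate and 2 with DESeq2, KO (1) gave 0 without the filter, with only the compared groups, and in Novogene libraries, and KO+AAV (1) gave 2 with DESeq2 and with the covariate and 0 with only the compared groups and in Novogene libraries. DESeq2 gave 1 for the difference of WT and KO between ages. KO+GFP against KO (1) gave 4 with DESeq2, 0 with the covariate (median 0.233, against 0.228), and 0 to 4 with 1 library left out. Lung (0) gave 7 with DESeq2, 0 to 6 with 1 library left out, and a median of 0.081 with the cardiomyocyte covariate. The covariates and the libraries left out of white fat were chosen after seeing the data. Why these values moved was not tested, apart from the fewer libraries where some were left out.

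With the replicate number as a block, WT against KO gave 6 members at 10 weeks and 17 at 40 weeks, and KO+GFP gave 2. Age in KO and in KO+AAV gave 0, and the age medians were 0.260 (WT), 0.287 (KO), and 0.138 (KO+AAV). Libraries of the same number correlated above 0.1 in 5 of 17 pairs at 10 weeks and 5 of 15 at 40 weeks in gastrocnemius, in 0 of 3 in the GFP experiment, and in 2 of 4 in heart, 2 of 4 in lung, 0 of 4 in liver, and 3 of 4 in white fat (median 0.525, against -0.291 for libraries of different numbers). In none of these did every pair pass, and the labels do not say that a number marks a shared animal or batch, so the numbers were not taken to pair the libraries. Depth limits the low members most: *Cox4i2* and *Cox6b2* had means of 23.2 and 3.25 normalized counts in gastrocnemius.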
